A study of Mus musculus with 2 samples.

Results

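Metallothioneins 1 and 2, encoded in the mouse by Mt1 and Mt2, were described in 2 single-cell libraries from lung. They were found as the table rows with exactly those symbols, 2 of the 10791 genes listed for niche cells and 2 of the 10814 genes listed for distal lung cells. They were chosen by their ratio of niche over distal level, which was known from earlier results, so the ratios between the libraries below are a description. Mt1 and Mt2 are small cysteine-rich proteins that bind zinc and copper and take up toxic metals such as cadmium. Their genes are switched on by zinc through the transcription factor MTF1, and also by glucocorticoids, by cytokines of the IL-6 family and by oxidative stress. In lung they are found in many cell types and are known as part of the response to injury and inflammation.

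The libraries are titled as niche cells and as distal lung cells, in a series on the non-immune niche of breast tumour metastasis. Labelling-4T1 cells, from the mouse mammary carcinoma line 4T1, had been given intravenously, and lungs were taken on day 7 for both libraries. Both were sorted as CD45-, a gate against blood cells, so the distal cells also came from a lung that had received tumour cells. The labels give no strain, sex, age or number of animals and do not say how niche cells were told from distal cells in the sort. There was 1 library per group, so no difference has a replicate check, and intervals cover counting error only.

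After cells with fewer than 500 genes were left out, 1423 niche cells with a median of 2975 UMIs and 1987 distal cells with a median of 1975 UMIs remained. A UMI marks a molecule captured at the 3' end of a transcript. The lists of barcodes shared 7 sequences. Cells were clustered without Mt1 and Mt2, and clusters were named from marker lists. Mesenchymal-like cells made up 781 niche cells (54.9%) and 400 distal cells (20.1%). Endothelial-like cells numbered 497 and 1307, epithelial-like cells 94 and 254, and 1 cluster of 51 and 26 cells, led by Btg1, Cd52 and Coro1a, reached no marker list and stayed unnamed. Markers fitted the mesenchymal-like and endothelial-like names: Col1a2, a collagen chain of fibroblasts, was found in 86.4% of niche and 67.5% of distal mesenchymal-like cells, against 6.84% and 1.22% of endothelial-like cells. Pecam1, a junction protein of endothelium, was found in 85.9% of endothelial-like cells of the niche and 86.1% of those of the distal library. Epcam, an epithelial adhesion protein, was found in 40.4% of niche and 53.9% of distal epithelial-like cells and in at most 0.384% of mesenchymal-like and endothelial-like ones. Ptprc, which encodes CD45, had 46 UMIs in the niche table and was not listed for distal cells. No listed gene had a sum under 10 UMIs (niche) or 12 UMIs (distal), so a gene not listed is not a count of 0.

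The 2 genes lie side by side on mouse chromosome 8 and are read in the same direction. In GENCODE vM21, Mt2 (ENSMUSG00000031762) spans 94172664 to 94173568 and Mt1 (ENSMUSG00000031765) spans 94179082 to 94180327, on the plus strand, with 3 exons in the main transcript of each and 5513 bases between them. Their relatives Mt3, the brain metallothionein, and Mt4, that of stratified epithelia, lie in the same stretch and were listed in neither table. The coding sequences have 186 bases each and are identical at 79.6% of positions. After the stop codon, where 3' reads fall, the longest run of bases found in both transcripts was 10, against 20 over the whole transcripts. The transcripts are 549 bases (Mt1) and 511 bases (Mt2) long.

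The promoter windows are shown because metal response elements, the sites MTF1 binds, are known in the promoters of both genes. Each runs from 250 bases before the start site to 50 after it, from RefSeq on GRCm38.p6, plus strand, chr8:94178839-94179138 for Mt1 and chr8:94172368-94172667 for Mt2. Capitals mark the core of the metal response element, searched as TGCACNC and TGCGCNC on both strands.
Mt1: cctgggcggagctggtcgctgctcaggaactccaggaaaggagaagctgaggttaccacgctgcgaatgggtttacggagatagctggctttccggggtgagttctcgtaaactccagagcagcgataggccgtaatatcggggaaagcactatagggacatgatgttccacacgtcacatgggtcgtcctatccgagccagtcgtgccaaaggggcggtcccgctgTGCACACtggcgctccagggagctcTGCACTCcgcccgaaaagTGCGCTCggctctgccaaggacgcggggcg
Mt2: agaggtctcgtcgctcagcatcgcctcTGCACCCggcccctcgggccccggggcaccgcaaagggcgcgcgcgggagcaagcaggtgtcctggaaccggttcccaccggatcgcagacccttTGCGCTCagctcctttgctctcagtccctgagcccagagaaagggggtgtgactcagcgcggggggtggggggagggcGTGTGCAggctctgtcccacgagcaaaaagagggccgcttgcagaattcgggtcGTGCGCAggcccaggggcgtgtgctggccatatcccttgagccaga
The Mt1 window held 3 cores, at -23, 2 and 20 bases from the annotated RefSeq start site. The Mt2 window held 4, at -223 and -128 on the plus strand and at -50 and 4 on the minus strand. At least 1 core was found in 25.7% of 32851 mouse promoter windows of this length, at least 3 in 1.97% and at least 4 in 0.517%. A symmetric STAT site, TTCNNNGAA, was found in 8.30% of windows and in neither of these. A match is a description of letters and not a bound site. Positions are from the annotated start, which was not checked against the transcripts of these cells. The windows may therefore not hold every known element.

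Mesenchymal-like cells held most metallothionein transcripts in both libraries. They carried 96.6% of the Mt1 and 95.7% of the Mt2 UMIs of niche cells, with 62.7% of all UMIs. In distal cells they carried 82.2% of the Mt1 and 88.3% of the Mt2 UMIs with 19.6% of all UMIs. Levels are counts per 1e+06 UMIs of the genes listed in both tables (CPM). Mt1 stood at 4239 CPM in niche (95% counting interval 4167 to 4311; 13548 UMIs) and 3250 CPM in distal mesenchymal-like cells (3136 to 3368; 3039 UMIs). Mt2 stood at 3233 CPM in niche (3171 to 3296; 10334 UMIs) and 1093 CPM in distal mesenchymal-like cells (1027 to 1162; 1022 UMIs). By number of UMIs Mt1 ranked 18 and Mt2 ranked 29 of 10198 genes in niche mesenchymal-like cells, against 24 and 146 in distal ones. Mt1 was therefore among the most abundant transcripts of these cells on either side, and in the niche Mt2 was close behind it.

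**Figure D1:**
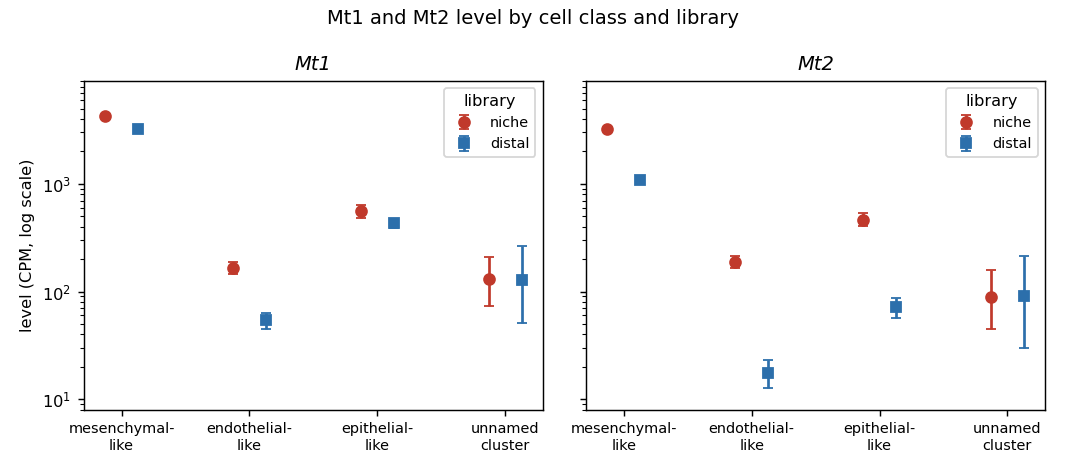
Level of Mt1 and Mt2 in each cell class (CPM, log scale), niche as circles and distal as squares, with exact 95% Poisson intervals. Mesenchymal-like cells sit highest in both libraries, and the gap between libraries is wider for Mt2 than for Mt1 in the mesenchymal-like, endothelial-like and epithelial-like classes.

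The log2 ratio of niche over distal was 0.38 for Mt1 (0.33 to 0.44) and 1.56 for Mt2 (1.47 to 1.66) in mesenchymal-like cells. That is 1.30-fold and 2.96-fold. Of the 8696 genes with 30 or more UMIs in this class, 3.73% were at least 2-fold higher in the niche with an interval clear of equality, and the median gene stood at -0.14. The ratios relative to that median were 0.52 for Mt1 and 1.70 for Mt2. Summed over all cells, Mt1 stood at 2749 CPM in niche and 777 CPM in distal cells, a log2 ratio of 1.82, and Mt2 at 2116 CPM and 243 CPM, a log2 ratio of 3.12, where 526 of 10198 genes were at least 2-fold higher. The ratios over all cells include the larger share of mesenchymal-like cells in the niche library.

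The endothelial-like and epithelial-like classes had lower levels and a wide gap for Mt2. In endothelial-like cells Mt1 stood at 165 CPM in niche and 54.0 CPM in distal cells, from 226 and 139 UMIs (log2 ratio 1.61, 1.30 to 1.93). Mt2 stood at 188 CPM in niche and 17.5 CPM in distal endothelial-like cells, from 257 and 45 UMIs (3.41, 2.96 to 3.91). Only 5 of 8552 genes measured in this class had a higher ratio than Mt2, and 1.54% were at least 2-fold higher in the niche. In epithelial-like cells Mt1 stood at 556 CPM in niche and 429 CPM in distal cells (0.38, 0.14 to 0.60). Mt2 stood at 466 CPM in niche and 71.2 CPM in distal epithelial-like cells (2.71, 2.34 to 3.10), a class in which 713 of 4764 genes were at least 2-fold higher. The unnamed cluster had 130 and 128 CPM of Mt1, and 89.3 and 91.4 CPM of Mt2, from at most 16 UMIs each, so a difference was not detectable there.

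The epithelial-like classes were not made of the same cells. Keratin epithelial-like cells were 69 of the 94 niche cells, and alveolar type 2-like cells 216 of the 254 distal ones. Without the keratin cluster the Mt2 ratio was 1.08, and with the niche clusters weighted to the distal mix it was 0.72. Niche cells outside the keratin cluster were few, 17 alveolar type 2-like and 8 alveolar type 1-like. No interval was taken for these 2 ratios, so a difference from 0 is not shown. Low Malat1, a nuclear RNA whose loss can mark damaged cells or missing nuclei, also went with the Mt1 and Mt2 levels in niche epithelial-like cells. The 58 cells with Malat1 under 0.25% of UMIs had 393 CPM of Mt1 and 609 CPM of Mt2, and the other 36 had 811 CPM and 243 CPM. Without cells of low Malat1 the epithelial ratio was 0.92 for Mt1 and 1.78 for Mt2.

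Transcripts from burst fibroblasts can enter droplets of other cells. The collagens Col1a1, Col1a2 and Col3a1, with Dcn and Mgp, stood in endothelial-like cells at a median of 1.38% of their mesenchymal level in the niche (1.01% to 3.78% over the 5 genes), and at 0.509% among distal cells (0.400% to 2.12%). The same shares of the mesenchymal metallothionein level would give 58.7 of the 165 CPM of Mt1 in niche and 16.5 of the 54.0 CPM in distal endothelial-like cells. For Mt2 they would give 44.7 of 188 CPM in niche and 5.56 of 17.5 CPM in distal cells. In epithelial-like cells the shares were 1.76% and 0.373%, which would give 57.1 of the 466 CPM of Mt2 in niche and 4.08 of the 71.2 CPM in distal cells. At the highest share of the 5 genes the endothelial figures would be 160 of 165 CPM of Mt1 and 122 of 188 CPM of Mt2 in niche cells, and 68.9 of 54.0 CPM and 23.2 of 17.5 CPM in distal cells. At the median share the endothelial levels thus lie above what free fibroblast RNA gives. At the highest share the interval of niche Mt2 does and the others do not. Of the 257 niche Mt2 UMIs, 119 came from 34 lymphatic endothelial-like cells. The class level without these cells was not set beside the highest share. Of the other endothelial-like clusters with at least 20 niche cells, only the one led by Cd74 had a Mt2 interval above 122 CPM (127 to 241). The clearance of niche Mt2 at the highest share is thus not shown for endothelial-like cells other than lymphatic ones as a whole.

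Within the mesenchymal-like class the level of both genes depended on the cluster. In niche cells the order of Mt1 ran from myofibroblast-like cells at 7000 CPM through adventitial fibroblast-like cells at 5870 CPM, a fibroblast-like cluster led by Mgp, Cxcl10 and Timp1 at 4550 CPM, and a smooth muscle-like cluster led by Cxcl10 and Thbs1 at 4053 CPM. Then came the lipofibroblast-like clusters, one led by Mgp at 2557 CPM and one led by Inmt with Tcf21 at 1170 CPM, and pericyte-like cells at 400 CPM. The intervals of these 7 did not overlap. The smooth muscle-like name depends on the clustering: at resolution 2 the cluster with the same 10 leading genes was named myofibroblast-like. The name of the Mgp lipofibroblast-like cluster is not firm either. At resolution 2 a cluster led by Mgp and Eln was named fibroblast-like, and one led by Inmt with Mgp lipofibroblast-like. At a lower resolution a cluster led by Mgp and Gpx3 was named fibroblast-like. Cells were not traced between clusterings. In distal cells Mt1 stood at 7829 CPM in myofibroblast-like cells, 3731 CPM in adventitial fibroblast-like cells, 963 CPM and 557 CPM in the Mgp and Tcf21 lipofibroblast-like clusters and 660 CPM in pericyte-like cells. The pericyte-like value was not separated from either lipofibroblast-like value beyond counting error.

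Mt2 followed another order in the niche. It was highest at 6623 CPM in the fibroblast-like cluster led by Mgp, Cxcl10 and Timp1, and then stood at 3358 CPM in the smooth muscle-like cluster and 3297 CPM in myofibroblast-like cells, whose intervals overlapped. Adventitial fibroblast-like cells had 2547 CPM, the Mgp and Tcf21 lipofibroblast-like clusters 1349 CPM and 400 CPM, and pericyte-like cells 308 CPM, the last pair with overlapping intervals. In distal cells Mt2 stood at 2498 CPM in myofibroblast-like cells, 1387 CPM in adventitial fibroblast-like cells and 281 CPM or less in the other 3 clusters. The fibroblast-like cluster had 175 niche cells and 2 distal cells, and the smooth muscle-like cluster 73 and 1, so neither has a distal value. Mt2 itself was among the 10 leading genes of both, although it was kept out of the clustering.

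**Figure D2:**
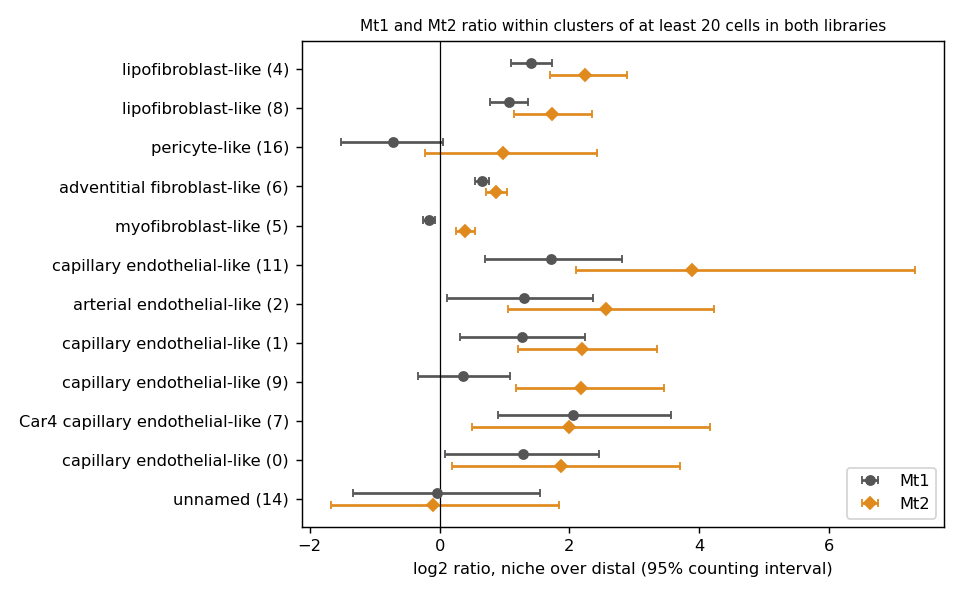
Log2 ratio of niche over distal for Mt1 (circles) and Mt2 (diamonds) in each cluster with at least 20 cells in both libraries, with 95% counting intervals; numbers in parentheses are cluster numbers. The Mt2 points lie above 0 in every cluster but the unnamed one, with an interval across 0 in pericyte-like cells. Mt1 is below 0 in myofibroblast-like cells (-0.16). It is also below 0, with intervals across 0, in pericyte-like cells (-0.72, -1.51 to 0.05) and the unnamed cluster (-0.03).

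Compared cluster by cluster, the ratio of niche over distal was widest in the clusters named lipofibroblast-like among the mesenchymal-like clusters. In the Mgp cluster (186 and 40 cells) the log2 ratio was 1.40 for Mt1 (1.10 to 1.73) and 2.23 for Mt2 (1.70 to 2.88). Its distal value rests on 1 of 40 cells, with 52 of 89 Mt1 and 13 of 26 Mt2 UMIs, and without that cell the ratios were 2.59 and 3.14. In the Tcf21 cluster (77 and 130 cells) the log2 ratio was 1.07 for Mt1 (0.78 to 1.37) and 1.73 for Mt2 (1.15 to 2.35). It was 0.62 and 1.07 without the richest niche cell. Without the richest cell of each library, this cluster had 856 CPM of Mt1 in niche and 448 CPM in distal cells, and 253 and 101 CPM of Mt2. The Mgp cluster then had 2328 and 419 CPM of Mt1, and 1285 and 147 CPM of Mt2. Adventitial fibroblast-like cells had log2 ratios of 0.65 for Mt1 (0.55 to 0.76) and 0.88 for Mt2 (0.71 to 1.05). Myofibroblast-like cells, with the highest Mt1 level on both sides, had -0.16 for Mt1 (-0.25 to -0.07) and 0.40 for Mt2 (0.26 to 0.55). Without the richest distal cell its Mt1 ratio was -0.05. With the richest cell of each library left out, Mt1 stood at 6488 CPM in niche and 7263 CPM in distal cells. The median myofibroblast-like cell had 2225 CPM of Mt1 in niche and 1750 CPM in distal cells. Mt1 was found in 76.7% and 61.7% of cells (62.9% and 57.1% thinned to 1000 UMIs). The sums thus differ in direction from the median cell and from the share of cells with Mt1. Lipofibroblasts are the lipid-storing fibroblasts of the alveolar wall, and myofibroblasts its contractile ones. The name of the Mgp cluster is not firm, as said above. The differences between clusters were not tested over replicates.

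The Mt2 ratio was lower without the 2 clusters that hold almost no distal cells. Without them the ratio in mesenchymal-like cells was 0.89 for Mt2, and with the niche clusters weighted to the distal mix it was 0.83, against 1.56 for the whole class. Leaving out cells with Malat1 under 0.25% of UMIs gave 0.35 for Mt1 and 1.5 for Mt2. These cells, 82 of 781 in niche mesenchymal-like cells, had 4284 CPM of Mt1 and 4993 CPM of Mt2, and the other 699 had 4235 CPM and 3107 CPM.

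In endothelial-like clusters, where UMIs were few, the ratio was above 0 for both genes in each of 6 clusters with enough cells, with an interval clear of 0 except for Mt1 in the cluster led by Cd74 (0.37, -0.34 to 1.09). In that cluster 1 distal cell held 18 of 32 Mt1 UMIs and all 9 Mt2 UMIs. The Mt2 ratio ran from 1.87 in capillary-like cluster 0 (8 niche and 6 distal UMIs) to 3.89 in capillary-like cluster 11 (17 and 2). At the median share, free fibroblast RNA would give 58.7 CPM of Mt1 and 44.7 CPM of Mt2 in the niche class as a whole. The niche interval held that level in clusters 0, 1 and 2 for Mt1, and in clusters 0, 2 and 7 for Mt2. In the others of the 6 clusters it lay above that level. Lymphatic endothelial-like cells, 34 niche and 11 distal, had 646 CPM of Mt1 and 949 CPM of Mt2 in the niche. These levels rest on few cells: the 10% of cells highest in each gene held 72.8% of the Mt1 and 85.7% of the Mt2 UMIs, and without the richest cell the levels were 564 CPM and 605 CPM. Without them the endothelial ratio was 1.13 for Mt1 and 2.64 for Mt2. Lymphatic vessels drain fluid and cells from tissue and differ from the blood vessels that make up the rest of this class.

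A minority of cells carried most metallothionein transcripts. In niche mesenchymal-like cells 79 of 781 cells held as many Mt1 and Mt2 UMIs as all the others together, and in distal ones 25 of 400 did. A threshold of 1% of a cell's UMIs, chosen after the values were seen, was passed by 208 of 781 niche cells (26.6%) and 57 of 400 distal cells (14.3%). They held 78.0% and 76.1% of the Mt UMIs of their class. Near this threshold, 67 niche and 16 distal cells lay between 1% and 1.5%, and 91 and 30 between 0.5% and 1%. The share of such cells was 39.7% in niche and 28.0% in distal myofibroblast-like cells, and 33.3% and 25.9% in adventitial fibroblast-like cells. It was 12.9% and 2.50% in the Mgp lipofibroblast-like cluster (1 distal cell), and in niche cells 39.4% in the Cxcl10 fibroblast-like and 30.1% in the smooth muscle-like cluster. By UMIs, the richest niche cell was a fibroblast-like cell with 152 Mt1 and 300 Mt2 UMIs, and the richest distal cell a myofibroblast-like cell with 137 and 35. By share of a cell's UMIs, the highest value was 8.95% in niche and 11.9% in distal cells.

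**Figure D3:**
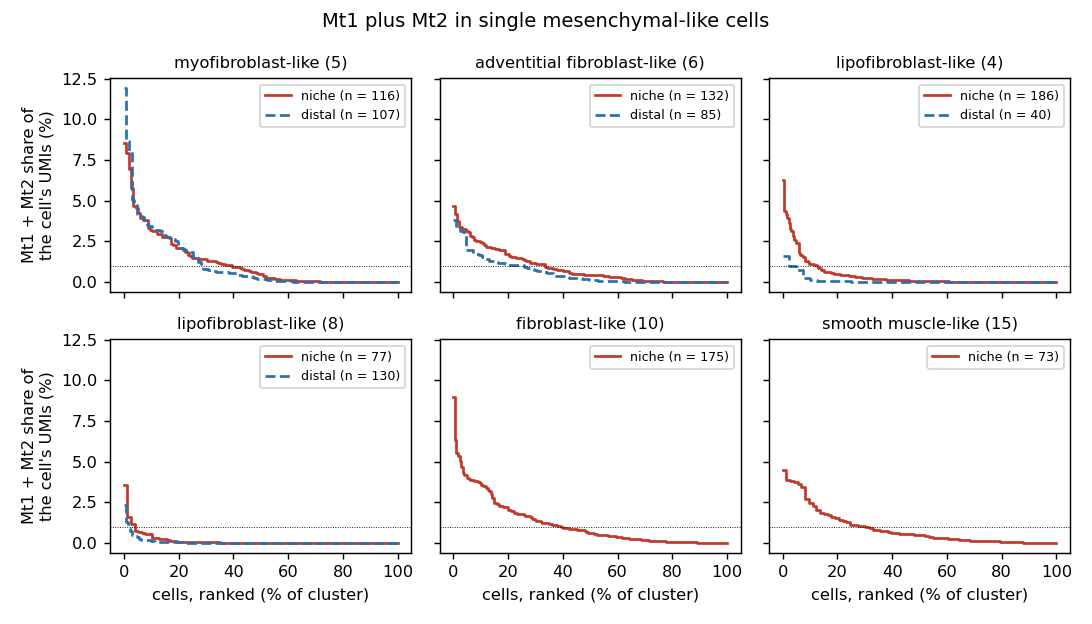
Share of each cell's UMIs that came from Mt1 plus Mt2, cells ranked from highest to lowest within 6 mesenchymal-like clusters, niche as solid and distal as dashed lines; the dotted line marks 1%. In the myofibroblast-like cluster (5) 39.7% of niche and 28.0% of distal cells lie above 1%, though the highest distal cell stands above the highest niche cell, and in the Mgp lipofibroblast-like cluster (4) 12.9% of niche and 2.50% of distal cells lie above 1%.

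More niche cells had a UMI of either gene at all, although depth differed. Mt1 was found in 73.0% of niche and 43.5% of distal mesenchymal-like cells, and Mt2 in 63.6% and 25%. Thinned to 1000 UMIs per cell, which left out 20 distal cells that were shallower, the shares were 57.4% and 36.5% for Mt1, and 48.1% and 20.5% for Mt2. In endothelial-like cells Mt1 was found in 22.7% and 7.12% and Mt2 in 20.5% and 2.60%. Thinned, with 111 distal cells left out, these were 10.8% and 3.78% for Mt1, and 9.38% and 1.41% for Mt2. No class here is known to lack these genes, so the free-RNA level above is the background to set beside these shares. The order of the libraries was the same at equal depth.

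Most mesenchymal-like cells with Mt2 also had Mt1. In this class 55.6% of niche and 21.8% of distal cells had both, against 46.4% and 10.9% for the product of the single shares. Of cells with Mt2, 87.3% of niche and 87.0% of distal ones also had Mt1, while of cells with Mt1, 76.1% and 50% also had Mt2. Distal myofibroblast-like cells with Mt2 numbered 40, and each had Mt1. Across mesenchymal-like cells the correlation of the 2 levels on a log scale was 0.71 among niche cells (n = 781) and 0.72 among distal cells (n = 400), a description over cells of 1 library that share their depth. In endothelial-like cells 7.65% of niche and 0.459% of distal cells had both, against products of 4.67% and 0.185%. Of endothelial-like cells with Mt2, 37.3% in the niche and 17.6% among distal cells also had Mt1.

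The ratio of Mt1 to Mt2 differed between the libraries. Mt1 made up 56.7% of Mt1 plus Mt2 UMIs in niche mesenchymal-like cells (56.1% to 57.4%) and 74.8% in distal ones (73.5% to 76.2%). As odds of Mt1 against Mt2 the niche over distal ratio was 0.441 (0.408 to 0.476). It was 0.285 in endothelial-like cells, with a share of 46.8% against 75.5%, and 0.199 in epithelial-like cells, with 54.4% against 85.8%. The epithelial value was 0.676 without the keratin cluster, and the mesenchymal value 0.703 without the 2 niche-only clusters. No interval was taken for these, and the epithelial one rests on 17 alveolar type 2-like and 8 alveolar type 1-like niche cells. UMIs at the 3' end were not scaled by transcript length, so these shares are of captured molecules.

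The share was uneven between clusters. In the niche the fibroblast-like cluster led by Mgp, Cxcl10 and Timp1 had an Mt1 share of 40.7% (39.7% to 41.8%), so Mt2 UMIs outnumbered those of Mt1. Lymphatic endothelial-like cells had 40.5% (33.6% to 47.7%), but 48.3% (39.8% to 56.8%) without the 1 cell that held 12 Mt1 and 45 Mt2 UMIs. The smooth muscle-like cluster had 54.7%. In clusters with cells on both sides the shares in niche and distal were 65.5% and 77.4% in the Mgp lipofibroblast-like cluster, 68.0% and 75.8% in myofibroblast-like and 69.7% and 72.9% in adventitial fibroblast-like cells. Distal alveolar type 2-like cells, the surfactant-making cells of the alveolus, had 89.3%, the highest of the 13 clusters drawn with this share.

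**Figure D4:**
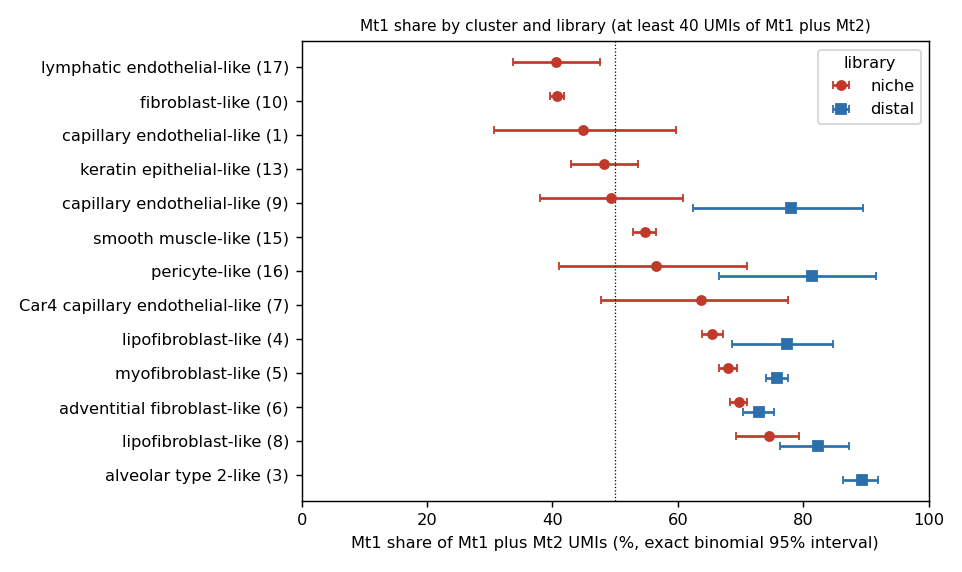
Mt1 as a share of Mt1 plus Mt2 UMIs (%) by cluster, niche as circles and distal as squares, with exact binomial 95% intervals; the dotted line marks 50%. Clusters are drawn where a library has at least 40 UMIs of both genes together. The interval of the fibroblast-like cluster (10) lies below 50%, as does that of lymphatic endothelial-like cells, and every distal value drawn lies above 70%.

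The share was also taken by the total per cell. In niche mesenchymal-like cells with 1 to 4 UMIs of both genes together it was 58.6% (53.4% to 63.7%). In those with 50 or more it was 55.3% (54.5% to 56.0%), so these intervals overlapped. The niche groups between ran from 57.9% to 61.9%. In distal mesenchymal-like cells it was 84.3% (76.6% to 90.3%) with 1 to 4 UMIs and 71.8% (69.8% to 73.8%) with 50 or more. In the class as a whole, the difference between the libraries was thus seen in cells with few and in cells with many metallothionein UMIs. These groups include the niche clusters with almost no distal cells and were not recomputed without them. Without those clusters the odds ratio of the whole class was 0.703 rather than 0.441.

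Genes that regulate or respond to the same signals were set beside Mt1 and Mt2, in 6 lists chosen with earlier results known. A member counts as higher or lower past 2-fold with an interval clear of equality. By that rule 3.73% of all genes in mesenchymal-like cells were higher in the niche and 6.99% lower. In endothelial-like cells 1.54% were higher and 1.45% lower. These shares are over genes with at least 30 UMIs in the class, while list members needed only 10. Of 24 zinc and copper handling genes measured in mesenchymal-like cells, 2 were higher and 1 was lower, with a list median log2 ratio of -0.10. Those higher were the zinc importers Slc39a14 (2.79; 224 niche and 9 distal UMIs) and Slc39a1 (1.20; 1272 and 161), and the lower one was the importer Slc39a8 (-1.77; 10 and 10). Mtf1, the zinc sensor itself, was at -0.23 (-1.21 to 0.94) from 33 and 11 UMIs, and the exporter Slc30a1 at -0.30 from 12 and 4, too few to show a difference. In endothelial-like cells none of 24 was past 2-fold and the median was 0.00, with Mtf1 at -0.67 (-1.51 to 0.05) and Slc30a1 at -0.43 (-0.96 to 0.06).

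Of 16 genes of the IL-6 and STAT3 response measured in mesenchymal-like cells, 7 were higher in the niche and 1 was lower. The lower one was the receptor chain Il6ra. Over all genes of the class 3.73% were higher and 6.99% lower. The list median was 0.91 beside -0.14 over all genes. Lcn2, a secreted siderophore-binding protein, was at 4.17 (523 and 8 UMIs), Timp1, an inhibitor of matrix proteases, at 3.84 (3949 and 80) and Hp, haptoglobin, at 2.58 (662 and 32). Short of 2-fold but clear of equality, Stat3 (0.80), Il1r1 (0.79) and Il6st (0.48) were higher. Socs3 (-0.62, -0.75 to -0.47) and Cebpb (-0.23, -0.30 to -0.15) were lower. These class ratios include the clusters with almost no distal cells, and the list was not recomputed without them. In endothelial-like cells 4 of 15 were higher and none lower past 2-fold, where 1.54% of all genes were higher. Among the 4 were Lcn2 at 2.0 and Timp1 at 1.86. The median was 0.25 beside -0.05. Short of 2-fold but clear of equality there, Lrg1 (0.92) and Cebpb (0.63) were higher, and Lifr (-0.80), Il6st (-0.33) and Socs3 (-0.27) lower. Free fibroblast RNA was not subtracted from these genes. In niche endothelial-like and mesenchymal-like cells Il6 stood at 10.9 and 756 CPM and Timp1 at 31.4 and 1235 CPM. Lcn2 stood at 51.8 and 164 CPM and Hp at 15.3 and 207 CPM. Whether the endothelial values come from fibroblast RNA was not tested. Of 12 glucocorticoid response genes in mesenchymal-like cells none was higher and 4 were lower, with a median of -0.59. They were Tsc22d3 (-1.90), Zbtb16 (-1.98), Klf9 (-1.10) and, named after its value was seen, Hsd11b1 (-1.02). In endothelial-like cells none of 12 was past 2-fold and the median was -0.13.

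The remaining lists had few genes past 2-fold. Of 18 oxidative stress genes 3 were higher in mesenchymal-like cells, with a median of 0.06: the mitochondrial dismutase Sod2 (2.15), the thioredoxin Txn1 (1.01) and the haem oxygenase Hmox1 (1.32). None of 18 was past 2-fold in endothelial-like cells (median 0.07). Of 20 genes of heat shock and tissue dissociation 1 was lower in mesenchymal-like cells, the chaperone Hspa1a (-1.24), with a median of -0.48, and none of 20 was past 2-fold in endothelial-like cells (median -0.05). Of 13 hypoxia genes 1 was higher, the hexokinase Hk2 (2.45), and 2 were lower, Adm (-1.09) and Bnip3 (-1.37), with a median of -0.16. None of 12 was past 2-fold in endothelial-like cells (median -0.09).

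**Figure D5:**
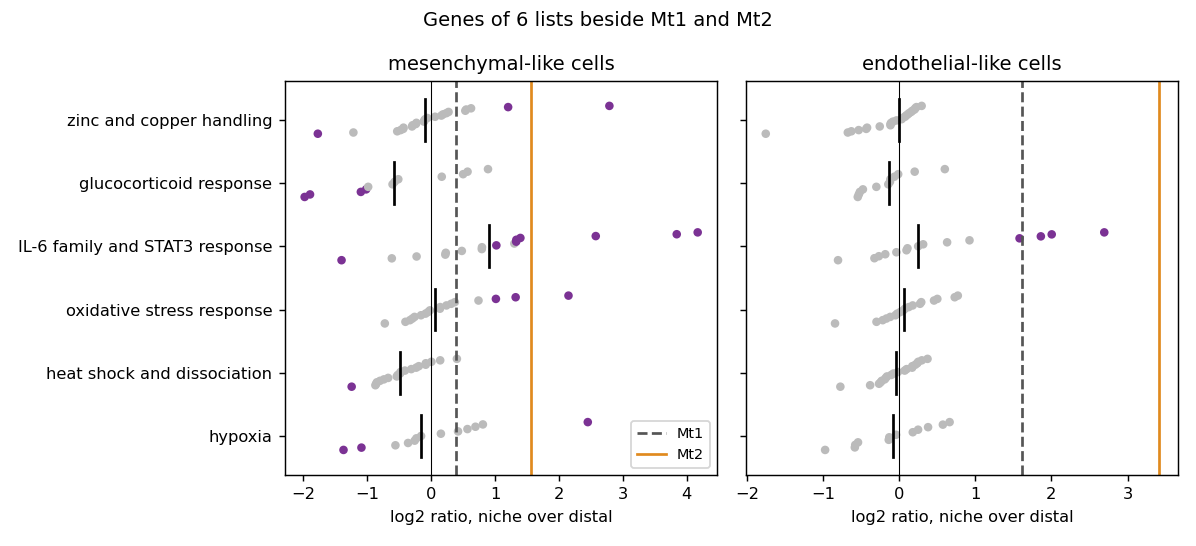
Log2 ratio of niche over distal for each measured gene of 6 lists in mesenchymal-like and endothelial-like cells, with list medians as black bars, genes past 2-fold with an interval clear of equality in purple, and Mt1 (dashed) and Mt2 (solid) as vertical lines. The IL-6 and STAT3 genes have the highest list median in mesenchymal-like cells (0.91), and the Mt2 line lies right of every list member in endothelial-like cells.

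Across 31 combinations of cluster and library the levels of Mt1 and Mt2 had a Pearson correlation of 0.94. Among 5727 other genes the 10 most like their sum were Col3a1 (0.91), Rcn3 (0.90), Igf1 (0.89), Cxcl1 (0.88), Col1a1 (0.88), Nfil3 (0.87), C4b (0.87), Crispld2 (0.87), Has1 (0.87) and Spon2 (0.87). These units share libraries and mix cell types, and collagens Col3a1 and Col1a1 are general fibroblast genes. Within mesenchymal-like cells, across single cells, the 10 closest of 2849 genes were Il6, Gadd45g, Cxcl1, Timp1, H2-Q4, Maff, Nfkbia, Thbs1, Sdc4 and Lgals1. Their correlations were low, 0.27 in niche and 0.35 in distal cells for Il6, the cytokine, and 0.31 and 0.24 for Timp1, where the 99th percentile of all genes was 0.18 and 0.25. In endothelial-like cells no gene reached 0.10 in both libraries, which is no finding in counts this sparse.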

How the data were processed

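Single cells from mouse lung were analysed in 2 libraries, niche and distal. Each was deposited by the authors as a table of UMI counts (genes by barcodes) without normalization. Per the labels' protocols, libraries used the Chromium Single Cell 3' chemistry; the mm10 build, Cell Ranger 2.1.1 and R 3.4.1 are named per the submitters' processing notes. Barcodes numbered 1473 (niche) and 1996 (distal), and UMIs 5283584 and 4791701, from 1245 to 9784 and from 685 to 7051 per barcode.

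Kept cells had at least 500 genes and no more than 10% of UMIs from mitochondrial genes. Both libraries were clustered together (Leiden, resolution 1, 2000 variable genes without Mt1 and Mt2, 20 components, 15 neighbours; Python 3.11.15, scanpy 1.11.5, leidenalg 0.10.2). A cluster was named from a list with at least 3 markers found in 25% of its cells. Doublets called per library, 10 niche and 27 distal cells, were kept. Levels are UMIs per 1e+06 UMIs of the 10198 genes listed in both tables. Log2 ratios add 0.5 UMI to each sum and have exact conditional binomial 95% intervals. Shares have exact Clopper-Pearson intervals, and thinned shares are expected values at 1000 UMIs. With 1 library per group there was no test and no p-value. Named genes were, in each list, up to 3 members furthest past 2-fold by the near end of their interval, and Mtf1, Slc30a1, Mt3 and Mt4. Members of the IL-6 and STAT3 list short of 2-fold but clear of equality were named after their values were seen. Likeness used log2(CPM + 10) over clusters, in genes with at least 200 UMIs, and across cells genes found in at least 10% of the class in each library. The ratios with their intervals, and the thinning, were checked on simulated counts. The simulated sums were Poisson draws, as the intervals assume, so spread between cells was not checked. Clustering and naming were not checked in this way. Members and lists were chosen with earlier results of these data known. Alternatives were other cell filters, clusterings, scalings, depth splits, pseudocounts and left-out cells or clusters.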

Additional observations from a re-analysis of the deposited data

Results flagged for a closer look

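The ratio of niche over distal for Mt1 had opposite signs in 2 mesenchymal-like clusters: a log2 ratio of -0.16 in myofibroblast-like cells and 1.40 in the Mgp lipofibroblast-like cluster. The difference was not tested, since each group has 1 library. The myofibroblast-like value comes from summed UMIs, and it was -0.05 without the richest distal cell. Without the richest cell of each library, Mt1 stood at 6488 CPM in niche and 7263 CPM in distal myofibroblast-like cells. By the median cell Mt1 was higher in the niche (2225 CPM against 1750 CPM). The lipofibroblast-like value was 2.59 without the richest distal cell.

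Barcodes left out for few genes also held metallothionein transcripts. The 50 niche barcodes held 14 Mt1 and 8 Mt2 UMIs, which is 155 and 88.6 CPM, and the 9 distal barcodes held none in 10432 UMIs.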

How the results depend on the processing

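Of 252 values recomputed for 52 results, 159 stayed within the counting interval of the reported value or, for list medians, within 0.1 of it, 91 moved by more and 2 turned sign. In mesenchymal-like cells the log2 ratios of Mt1 and Mt2 (0.38 and 1.56) were 0.58 and 1.73 with at least 1000 genes per cell, 0.52 and 1.70 scaled to a median ratio of 0, and 0.69 and 1.98 without the 5% of cells highest in both genes. The Mt2 ratio was 0.83 with niche clusters weighted to the distal mix and 0.89 without the clusters under 20 distal cells, where the odds ratio was 0.703. In endothelial-like cells the Mt1 ratio (1.61) was 2.36 without the top 5% of cells, 1.16 at the distal mix and 1.13 without the lymphatic cluster. The Mt2 ratio (3.41) was 2.87 at the distal mix and 2.64 without the lymphatic cluster. Over all cells the ratios (1.82 and 3.12) were 3.44 and 5.31 without the top 5% of cells, and the epithelial Mt2 ratio (2.71) was 3.70. Without low Malat1 the epithelial odds ratio (0.199) was 0.553. The median of the zinc and copper genes in mesenchymal-like cells (-0.10) was 0.00097 over members with 30 UMIs and 0.037 scaled to a median ratio of 0. The causes of these shifts were not tested. The alternatives of leaving out clusters or a single richest cell and of subtracting free RNA were chosen after seeing the data. No paired analysis was possible because there is 1 library per group and no replicate number to pair. Depth limits the endothelial-like clusters, with as few as 2 Mt2 UMIs, and the unnamed cluster.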
